A study of Homo sapiens with 10 samples.

Results

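The genes described here are 10 classical players of the epithelial-mesenchymal axis, chosen by symbol from the 19215 gene symbols counted. They are the epithelial genes CDH1, EPCAM and ESRP2, the mesenchymal genes CDH2, VIM and FN1, and the transcription factors ZEB1, ZEB2, SNAI2 and TWIST1. Poly(A) RNA was sequenced from 4 stable lines in 10 libraries. They were SK-Hep1 with a miR-17 TuD (2 libraries), SK-Hep1 with an NC TuD (2), HepG2 with a miR-17 TuD (3) and HepG2 with an NC TuD (3). A TuD, or tough decoy, is an expressed hairpin RNA whose loops hold binding sites for a microRNA and keep it from its targets. The miR-17 TuD is aimed at the miR-17 family and the NC TuD is its negative control.

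HepG2 is a human liver tumour line that makes many hepatocyte proteins. SK-Hep1 is a human liver tumour line of mesenchymal shape for which an endothelial origin has been reported. The decoys were delivered by lentivirus, at 5 infectious particles per cell and in 10 µg/mL polybrene, over 48 h at 37 °C. Cells were then kept in puromycin at 1 µg/mL, and after 2 weeks the resistant colonies of an arm were pooled, so each arm of each line is 1 stable line. A difference between arms therefore cannot be told apart from the separate histories of the stable lines. The labels do not say that replicates were separate cultures, so p-values measure the spread between these libraries, which may be technical.

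Epithelial cells hold together through E-cadherin, a membrane protein that binds its like on the neighbouring cell and is tied to actin by catenins. In an epithelial-mesenchymal transition, factors of the ZEB, SNAI and TWIST families bind E-box sequences in the E-cadherin gene and repress it, while vimentin, fibronectin and often N-cadherin rise. The microRNAs best known for restraining ZEB1 and ZEB2 are those of the miR-200 family, which has another seed than miR-17. Hepatocytes are unusual among epithelia, since they normally carry N-cadherin beside E-cadherin and secrete plasma fibronectin.

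Mature sequences of the family show what the decoy is directed at. A microRNA finds its targets mainly through its seed, bases 2 to 8, given here in capitals. Of 8 mature human microRNAs in RefSeq (GRCh38.p14) with this seed, the 6 of the miR-17, miR-106a and miR-106b clusters are printed 5′ to 3′.
hsa-miR-17-5p: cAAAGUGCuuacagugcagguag
hsa-miR-20a-5p: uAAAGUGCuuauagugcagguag
hsa-miR-20b-5p: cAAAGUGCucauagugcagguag
hsa-miR-93-5p: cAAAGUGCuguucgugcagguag
hsa-miR-106a-5p: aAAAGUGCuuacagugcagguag
hsa-miR-106b-5p: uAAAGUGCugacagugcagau

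The longest annotated 3′ untranslated region of each gene (GENCODE 29, GRCh38) was searched, on the transcribed strand, for the 8mer GCACTTTA and for the shorter 7mer-m8 GCACTTT and 7mer-A1 CACTTTA that are contained in it. CDH1 held 1 7mer-A1, at base 154 of its region of 2049 bases. TWIST1 held 1 7mer-m8, at base 183 of 706. The other 8 genes held none of the 3 kinds. Of 12732 tested genes with such a region, 25.01% held an 8mer or 7mer-m8 and 31.3% held any of the 3. These are the only matches among the 10 genes, printed with the matching bases in capitals; the CDH1 match lies at chr16:68833653-68833659 on the plus strand and the TWIST1 match at chr7:19115985-19115991 on the minus strand.
CDH1: tatactctctcCACTTTAtagctctaata
TWIST1: gggcgtggggcGCACTTTtaaaagagaaa

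The libraries held 12884225 to 15076431 gene counts each, and 1 count was worth 0.0657 to 0.0795 CPM (the count scaled to a common library size with TMM factors). All 10 genes passed the filter on low counts, but CDH1, EPCAM and ESRP2 passed only through HepG2, and ZEB2, SNAI2 and TWIST1 only through SK-Hep1. The lines matched their labels on hepatocyte markers. Summed over 10 hepatocyte genes, the level was 74.4 to 105.4 CPM in SK-Hep1 libraries and 48205 to 57507 CPM in HepG2 libraries, and TTR had no count in SK-Hep1. The level in SK-Hep1 was mostly SERPINA1. Of the defining endothelial markers, PECAM1, KDR and ERG had 0 counts in all 4 SK-Hep1 libraries, and the summed level of 10 such markers, 26.1 to 30.0 CPM there, was mostly ROBO4.

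**Figure D1:**
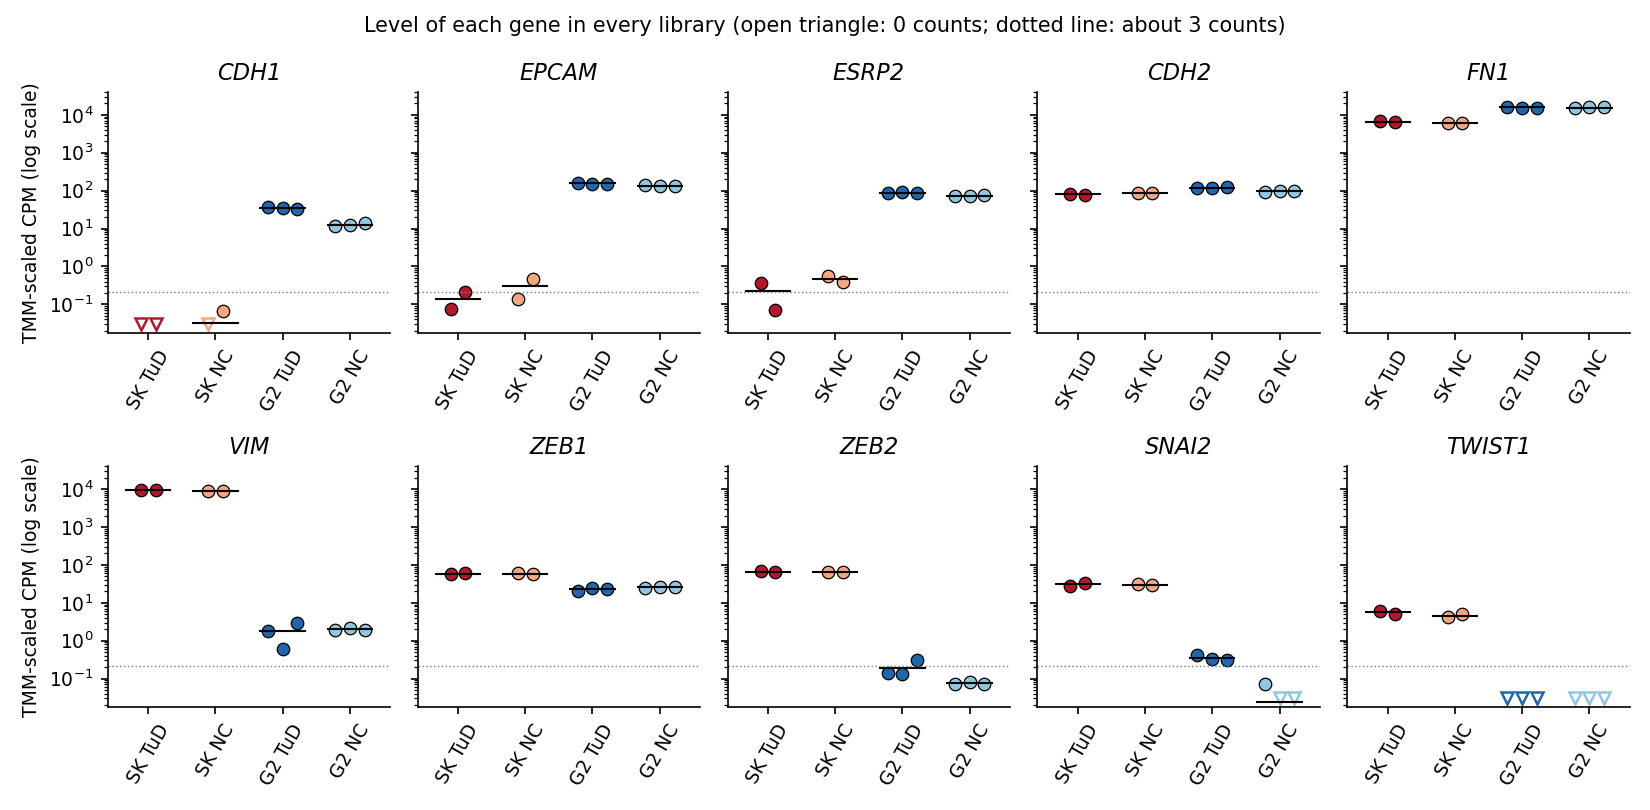
CPM of each of the 10 genes in every library on a log axis, with SK-Hep1 (SK) left of HepG2 (G2) and the miR-17 TuD arm left of the NC TuD arm; points are libraries, black lines are means, open triangles are libraries with 0 counts and the dotted line marks about 3 counts. CDH1, EPCAM and ESRP2 sit near or below 3 counts in SK-Hep1, VIM, ZEB2, SNAI2 and TWIST1 are high there, and between arms the widest gap among the well-counted genes is CDH1 in HepG2.

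The clearest response to the miR-17 decoy was E-cadherin in HepG2. CDH1 (chr16:68737225-68835548, plus strand) had 36.6, 34.8 and 32.6 CPM in miR-17 TuD libraries, against 12.0, 12.3 and 13.6 CPM in NC TuD libraries. All 3 decoy libraries lay far above all 3 controls. The means were 34.7 ± 2.01 and 12.6 ± 0.868 CPM (SD, n = 3 each), resting on 1474 and 506 counts in all. The log2 fold change was 1.46 ± 0.09 (SE), with an adjusted p of 3.77e-20 by edgeR's quasi-likelihood test. By p-value CDH1 stood 10th of 13349 genes tested, and 205th by log2 fold change. Over 20 alternative analyses its log2 fold change stayed between 1.42 and 1.52, and it was called in each.

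In HepG2, 5 of the 10 genes were called higher with the decoy (CDH1, CDH2, EPCAM, ESRP2 and SNAI2), none lower and 5 not. The background was wide: of all genes tested, 19.3% were called, 10.7% higher and 8.58% lower. The arms did not overlap for 6 of the 10 genes, the 5 called and ZEB2, beside 31.0% of all genes. The median log2 fold change of the 10 was 0.23, and that of all genes 0. Genes from the epithelial and the mesenchymal side were both among those that rose.

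EPCAM (chr2:47345158-47387601, plus strand) encodes the epithelial cell adhesion molecule, a surface protein of epithelia and liver progenitor cells. It had 162.4, 154.1 and 153.1 CPM in HepG2 miR-17 TuD libraries, against 139.2, 135.2 and 133.8 CPM in NC TuD libraries. The arms were separate but close, with a log2 fold change of 0.20 ± 0.05 (SE, adjusted p = 0.000658, edgeR). ESRP2 (chr16:68229111-68238102, minus strand) encodes an RNA-binding protein that sets epithelial splicing patterns. It had 84.8, 91.8 and 84.5 CPM with the decoy, against 70.8, 70.5 and 75.8 CPM in the control. Again no library crossed over, and the log2 fold change was 0.27 ± 0.05 (SE, adjusted p = 0.000194, edgeR). Neither call held when limma was run on the log2 matrix that the authors deposited, where the adjusted p was 0.799 for EPCAM and 0.742 for ESRP2 with log2 fold changes of 0.20 and 0.26. The exons of ESRP2 share 149 bases with NFATC3 on the other strand, and the library kit does not record strand, so reads there cannot be told apart. Its relative ESRP1 had at most 1 count in any HepG2 library.

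N-cadherin rose with E-cadherin in HepG2. CDH2 (chr18:27950966-28177446, minus strand) had 118.4, 117.6 and 123.7 CPM in miR-17 TuD libraries, against 94.7, 99.6 and 100.6 CPM in NC TuD libraries. The arms did not overlap, and the log2 fold change was 0.29 ± 0.05 (SE, adjusted p = 2.82e-06, edgeR). The rise was smaller than that of CDH1, so the balance of the pair differed between arms. Per kilobase of exon, CDH1 made up 21.7%, 20.9% and 19.1% of the sum of both cadherins in miR-17 TuD libraries, against 10.1%, 9.96% and 10.8% in NC TuD libraries. N-cadherin thus stayed the more abundant transcript of the pair in both arms, with 27.0 CPM per kb in the decoy arm and 22.1 CPM per kb in the control arm, beside 6.97 and 2.54 CPM per kb for CDH1.

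**Figure D2:**
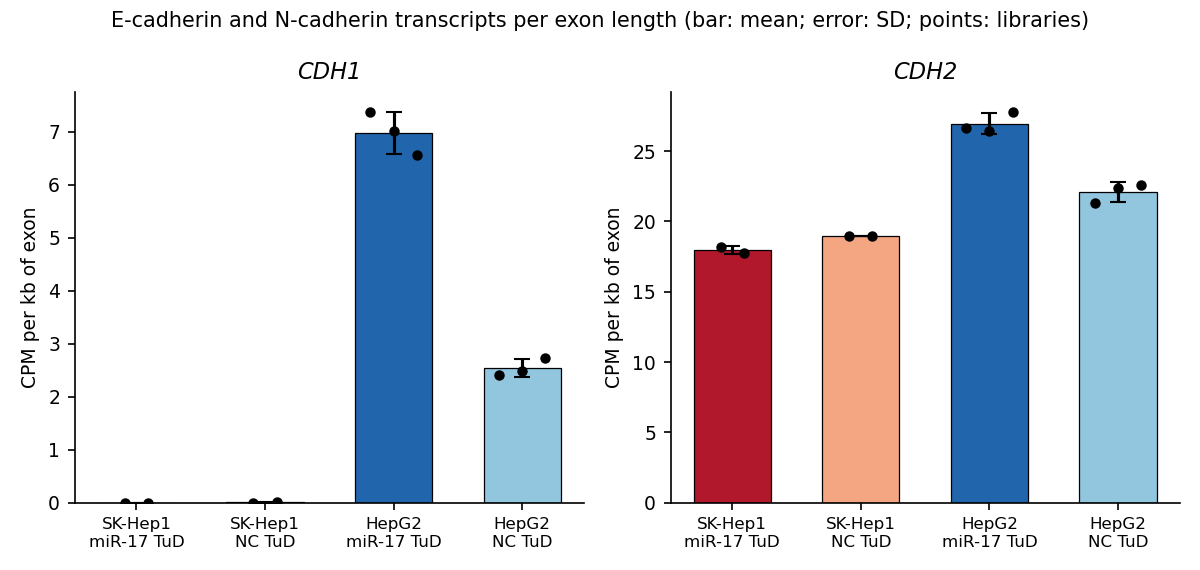
CPM per kilobase of exon of CDH1 and CDH2 in the 4 groups, SK-Hep1 left of HepG2 and miR-17 TuD left of NC TuD; bars are means, error bars SD and points libraries (2 per SK-Hep1 group, 3 per HepG2 group), and the panels have different axes. CDH1 averages 6.97 CPM per kb in HepG2 miR-17 TuD and 2.54 CPM per kb in HepG2 NC TuD and is almost nil in SK-Hep1, whereas CDH2 is present in all 4 groups.

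Fibronectin and vimentin gave no call in HepG2. FN1 (chr2:215360440-215436172, minus strand), the matrix glycoprotein, had 15781, 15463 and 15587 CPM in miR-17 TuD libraries, against 14722, 15619 and 16052 CPM in NC TuD libraries. The decoy libraries lay within the range of the controls, and the log2 fold change was 0.01 ± 0.03 (SE, adjusted p = 0.832, edgeR). In both HepG2 arms FN1 drew more reads than any gene but 1 of the 19215. VIM (chr10:17228259-17237593, plus strand), the intermediate filament of mesenchymal cells, was near the bottom of the range. It had 25, 9 and 39 counts, or 1.75, 0.602 and 2.96 CPM, in miR-17 TuD libraries, against 26, 27 and 26 counts, or 1.90, 2.15 and 1.89 CPM, in NC TuD libraries. The decoy libraries scattered on both sides of the tight controls, with a log2 fold change of -0.20 ± 0.32 (SE, adjusted p = 0.754, edgeR). Which decoy library was left out decided the VIM value: without replicate 2 it was 0.24, and without replicate 3 it was -0.76, called at an adjusted p of 0.0415.

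Of the 4 transcription factors among the 10 genes, ZEB1 (chr10:31318495-31529814, plus strand) was the only one above 1 CPM in HepG2. It had 20.4, 24.5 and 22.4 CPM in miR-17 TuD libraries, against 24.4, 26.4 and 26.1 CPM in NC TuD libraries. The arms touched at a single decoy library, and the log2 fold change of -0.19 ± 0.08 (SE) was not called (adjusted p = 0.0817, edgeR). Without that library, miR-17 TuD replicate 2, ZEB1 was called lower at -0.26 (adjusted p = 0.0302). Per kilobase of exon, CDH1 stood above ZEB1 in the decoy arm, at 6.97 and 3.49 CPM per kb. In the control arm the order was the other way round, at 2.54 CPM per kb for CDH1 and 3.98 CPM per kb for ZEB1.

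SNAI2, ZEB2 and TWIST1 were at the limit of detection in HepG2. SNAI2 (chr8:48917604-48921740, minus strand), which encodes the zinc-finger repressor Slug, had 6, 5 and 4 counts in miR-17 TuD libraries, against 1, 0 and 0 counts in NC TuD libraries. It was called higher (adjusted p = 0.00492, edgeR), but on so few counts the size is poorly set. The ratio of summed counts, each divided by its summed library sizes, was 14.2. Its 95% exact Poisson interval of 2.18 to 596 covers counting error only. The mean with the decoy was 0.353 ± 0.0605 CPM (SD, n = 3), little above the 0.197 to 0.239 CPM that 3 counts are worth. ZEB2 (chr2:144364364-144524583, minus strand), the close relative of ZEB1, had 2, 2 and 4 counts with the decoy, against 1 count in each control library. Its ratio of 2.52 had an interval of 0.604 to 14.7 and was not called (adjusted p = 0.347, edgeR), although it was on the deposited log2 matrix (adjusted p = 0.0464, limma). TWIST1 (chr7:19020991-19117672, minus strand), a basic helix-loop-helix factor, had 0 counts in all 6 HepG2 libraries, which allows up to 3 counts in each. SNAI1, the other Snail-family repressor, was better counted, at 4.20, 4.01 and 4.70 CPM with the decoy, against 4.67, 6.04 and 5.97 CPM in the control. Its arms overlapped by 1 library, and it was not called at -0.37 ± 0.16 (SE, adjusted p = 0.109, edgeR).

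In SK-Hep1 none of the 10 genes was called between miR-17 TuD and NC TuD by edgeR, beside 0.869% of all genes tested (0.667% higher and 0.202% lower). At an unadjusted p below 0.05 the same test gave 1 gene, FN1 (0.00320), and limma-voom called 1, VIM. The arms did not overlap for 5 of the 10 (CDH2, VIM, FN1, TWIST1 and ESRP2), beside 40.4% of all genes. The median log2 fold change of the 10 was 0.02. With only 2 libraries per arm, a p that misses the threshold does not show that a level was unchanged.

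CDH1 could not be assessed in SK-Hep1. It had 0 and 0 counts in miR-17 TuD libraries and 0 and 1 count in NC TuD libraries, so no fold is given. EPCAM had 1 and 3 counts with the decoy, against 2 and 7 counts in the control, and ESRP2 had 5 and 1, against 8 and 6. The ratio was 0.473 for EPCAM (95% Poisson interval 0.106 to 1.70) and 0.456 for ESRP2 (0.144 to 1.26), and neither was called (adjusted p = 0.786 and 0.701, edgeR). Of 10 hepatocyte markers, 4 were called lower with the decoy in SK-Hep1, 1 higher and 5 not, beside 0.202% lower and 0.667% higher over all genes. Their summed level was 74.4 to 79.8 CPM with the decoy and 84.7 to 105.4 CPM in the control. Most of that sum was SERPINA1, at 68.7 CPM with the decoy and 64.8 CPM in the control. SERPINA1 was not called (log2 fold change 0.08 ± 0.05, SE, adjusted p = 0.728, edgeR). TTR had no count in either arm. ALB had 0 and 4 counts with the decoy, against 59 and 113 in the control, and AFP had 11 and 7, against 62 and 76. FGB went the other way, with 21 counts with the decoy and 4 in the control over both libraries (adjusted p = 0.0331, edgeR). Per ALB count, HepG2 NC TuD libraries held 0.0100 EPCAM and 0.00533 ESRP2 counts. At these ratios the 172 ALB counts of the SK-Hep1 control go with 1.72 EPCAM and 0.917 ESRP2 counts, beside 9 and 14 seen. The 4 ALB counts of the decoy arm go with 0.0401 and 0.0213, beside 4 and 6 seen. The part of the hepatocyte transcripts in the EPCAM and ESRP2 counts was not tested.

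The abundant mesenchymal genes of SK-Hep1 differed little between arms. VIM had 9622 and 9540 CPM in miR-17 TuD libraries, against 8696 and 8948 CPM in NC TuD libraries, and drew more reads than any other gene in both arms. The arms were separate, but the log2 fold change of 0.12 ± 0.06 (SE) was not called when all 10 libraries shared 1 estimate of the spread (adjusted p = 0.604, edgeR). It was called with SK-Hep1 libraries alone (0.13, adjusted p = 4.61e-05) and by limma-voom (adjusted p = 0.0193). FN1 had 6672 and 6283 CPM with the decoy, against 5926 and 6022 CPM in the control. Its log2 fold change of 0.12 ± 0.04 (SE, adjusted p = 0.167, edgeR) was likewise called in SK-Hep1 libraries alone (adjusted p = 0.000494). CDH2 had 80.8 and 79.0 CPM with the decoy, against 84.3 and 84.4 CPM in the control, a log2 fold change of -0.08 ± 0.06 (SE, adjusted p = 0.779, edgeR).

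The repressors of SK-Hep1 sat at nearly equal levels in both arms. ZEB1 had 55.9 and 62.0 CPM in miR-17 TuD libraries, against 59.4 and 57.5 CPM in NC TuD libraries. ZEB2 had 67.4 and 65.4 CPM with the decoy, against 66.7 and 64.6 CPM in the control. SNAI2 had 28.5 and 33.1 CPM, against 30.8 and 29.8 CPM. The arms of all 3 overlapped, and their log2 fold changes were 0.01 ± 0.07, 0.02 ± 0.07 and 0.03 ± 0.09 (SE). TWIST1, the gene with the 7mer-m8 printed above, had 5.90 and 5.18 CPM with the decoy, against 4.29 and 4.93 CPM in the control. Its arms did not overlap, and the log2 fold change of 0.26 ± 0.20 (SE) was not called (adjusted p = 0.783, edgeR).

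**Figure D3:**
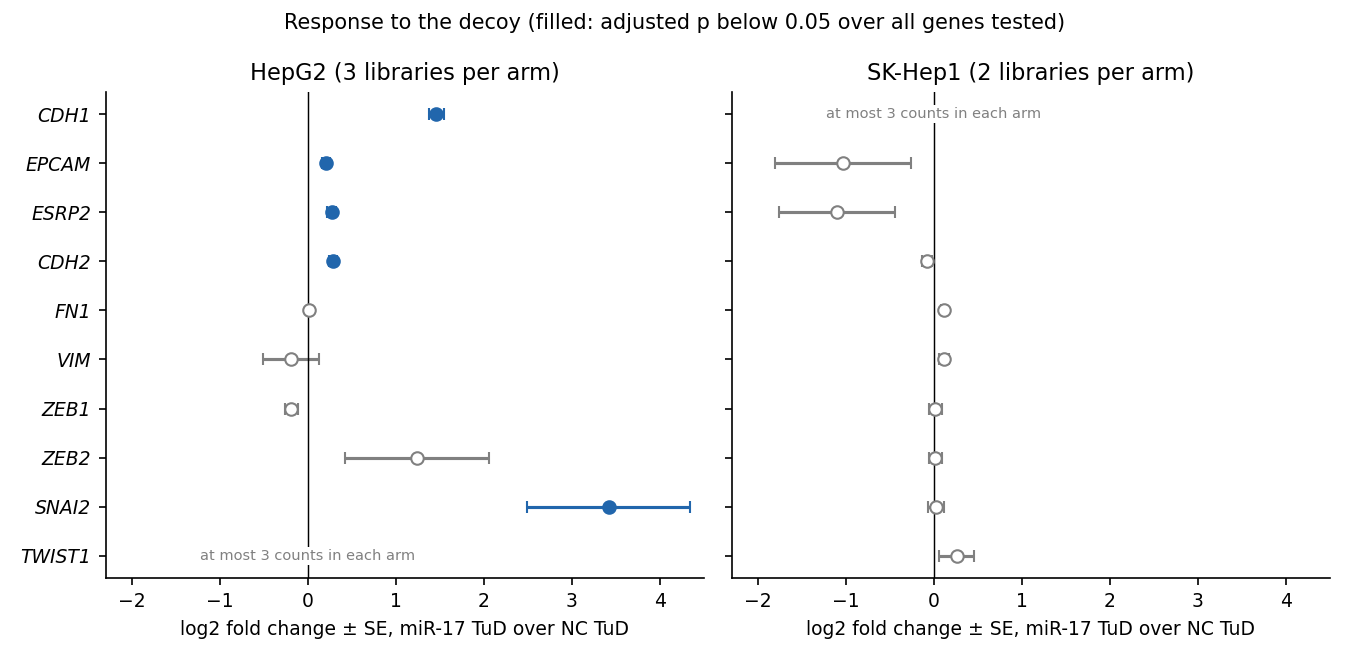
Log2 fold change ± SE of miR-17 TuD over NC TuD for the 10 genes in HepG2 (left, 3 libraries per arm) and SK-Hep1 (right, 2 per arm); filled points have an adjusted p below 0.05 over all genes tested by edgeR. CDH1 in HepG2 stands at 1.46 with a small error and SNAI2 at 3.42 with a wide one, while no point is filled in SK-Hep1.

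The responses of the 2 lines were then tested against each other, as HepG2 minus SK-Hep1. Of the 10 genes, CDH2 and SNAI2 were called, both more positive in HepG2, beside 3.75% of all genes (2.51% more positive and 1.24% less positive). The difference for CDH2 was 0.36 ± 0.08 on the log2 scale (SE, adjusted p = 0.00108, edgeR), with a rise in HepG2 and a value of -0.08 in SK-Hep1. The difference for SNAI2 was 3.39 ± 0.93 (adjusted p = 0.0240, edgeR), where the size depends on the prior count added to near-empty control libraries. The SNAI2 call was lost with DESeq2 (adjusted p = 0.0797) and without HepG2 miR-17 TuD replicate 1 (0.0794), NC TuD replicate 2 (0.0855) or NC TuD replicate 3 (0.0913). For ZEB1 the difference was -0.20 ± 0.11 and for FN1 it was -0.10 ± 0.05, and neither was called (adjusted p = 0.360 and 0.292, edgeR). The VIM difference of -0.32 ± 0.33 (adjusted p = 0.720, edgeR) was 0.12 without HepG2 miR-17 TuD replicate 2 and was called at -0.88 without replicate 3 (adjusted p = 0.0465). The difference for CDH1 could not be estimated, since SK-Hep1 had almost no reads of it.

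Between the control arms, SK-Hep1 and HepG2 lay at opposite ends of the axis for most of the 10 genes. VIM, ZEB1, ZEB2, SNAI2 and TWIST1 were called higher in SK-Hep1, and CDH1, EPCAM, ESRP2, CDH2 and FN1 lower. The 2 lines differed widely everywhere, since 86.7% of all genes were called and 90.4% had arms that did not overlap, so a call says little by itself. In addition, 6 of the 10 passed the filter only through the line where they were high. In bulk RNA, fewer cells with a transcript and less of it per cell cannot be told apart.

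VIM averaged 8822 ± 178.1 CPM in SK-Hep1 NC TuD libraries and 1.98 ± 0.146 CPM in HepG2 NC TuD libraries (SD, n = 2 and 3). The log2 fold change was 12.12 ± 0.10 (SE, adjusted p = 1.36e-27, edgeR). The ratio of summed counts, each divided by its summed library sizes, was 4471. ZEB1 was present in both lines, at 58.4 ± 1.35 and 25.6 ± 1.05 CPM, with a log2 fold change of 1.19 ± 0.07 (SE, adjusted p = 4.23e-22, edgeR). ZEB2, SNAI2 and TWIST1 were in effect present in SK-Hep1 and missing from HepG2 at this depth. The ratio was 875 for ZEB2 (95% Poisson interval 299 to 4246) and 1213 for SNAI2 (217 to 47964). TWIST1, at 4.61 ± 0.452 CPM in SK-Hep1 and 0 counts in HepG2, was at least 20.4-fold higher when 3 counts are allowed in each HepG2 library. SNAI1, the relative of SNAI2, went the other way, with 1 count in SK-Hep1 NC TuD libraries and 222 in HepG2 NC TuD libraries. The SNAI1 ratio was 0.00612 (95% Poisson interval 0.000154 to 0.0344). SNAI1, too, passed the filter on low counts only through HepG2. Its log2 fold change of -7.02 ± 0.50 (SE, adjusted p = 2.15e-19, edgeR) rests on that 1 count in SK-Hep1.

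The epithelial genes showed the opposite pattern. CDH1 had 1 count in the 2 SK-Hep1 NC TuD libraries and 506 in the 3 HepG2 NC TuD libraries, a ratio of 0.00268 (95% Poisson interval 6.78e-05 to 0.0150). EPCAM had a ratio of 0.00224 (0.00103 to 0.00426) and ESRP2 one of 0.00656 (0.00358 to 0.0110). ESRP1, the relative of ESRP2, did not share this pattern. It had 7 counts in SK-Hep1 NC TuD libraries and 1 in HepG2 NC TuD libraries, and did not pass the filter. The mesenchymal genes CDH2 and FN1 did not follow VIM. CDH2 averaged 84.4 ± 0.0991 CPM in SK-Hep1 and 98.3 ± 3.17 CPM in HepG2, a log2 fold change of -0.22 ± 0.05 (SE, adjusted p = 0.000158, edgeR). FN1 averaged 5974 ± 67.5 CPM in SK-Hep1 and 15464 ± 678.3 CPM in HepG2, a log2 fold change of -1.37 ± 0.04 (SE, adjusted p = 2.30e-40, edgeR). Both libraries of SK-Hep1 lay below all 3 of HepG2 for each of these genes.

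Ordered by CPM per kilobase of exon, the SK-Hep1 control ran from VIM (4723) through FN1 (656.8), CDH2 (19.0), SNAI2 (12.5), ZEB1 (9.08) and ZEB2 (4.91) to TWIST1 (2.76). EPCAM and ESRP2 followed at 0.149 and 0.125 with overlapping libraries, and CDH1 came last. The HepG2 control ran from FN1 (1700) through EPCAM (67.7), CDH2 (22.1), ESRP2 (18.8), ZEB1 (3.98) and CDH1 (2.54) to VIM (1.06). SNAI2 and ZEB2 overlapped below that, and TWIST1 was at 0. Under the decoy the order was kept in SK-Hep1, while in HepG2 CDH1 passed ZEB1.

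Wider lists of genes from the same programme, none of them among the 10, place these values. In HepG2, 14 of 30 tested epithelial effector genes, such as junction proteins, keratins and polarity genes, were called higher with the decoy and none lower. Over all genes tested, 10.7% were called higher and 8.58% lower. CD24, a surface glycoprotein, averaged 143.2 ± 1.56 CPM with the decoy and 79.2 ± 6.91 CPM in the control (log2 fold change 0.86 ± 0.05, SE). KRT8, the keratin of simple epithelia, rose by 0.20 ± 0.03, and ERBB3, a growth factor receptor, by 0.25 ± 0.04. Of 12 epithelial transcription factors, 5 were higher and 1 lower, with ELF3 at 0.64 ± 0.09, KLF5 at 0.62 ± 0.11 and the hepatocyte regulator HNF4A at 0.20 ± 0.04. Of 9 tested genes in a list of cadherins, catenins and their partners 4 were higher, among them plakoglobin (JUP, 0.46 ± 0.05), vinculin (VCL, 0.27 ± 0.04) and afadin (MLLT4, 0.13 ± 0.04), and none lower. These values are log2 fold changes ± SE, with adjusted p between 2.04e-20 and 0.0123 by edgeR. The calls of ELF3 and HNF4A were lost on the deposited log2 matrix (limma, adjusted p = 0.160 and 0.848). That of MLLT4 was lost without NC TuD replicate 1 and with replicate numbers as blocks (adjusted p = 0.0778 and 0.0676, edgeR).

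Mesenchymal genes moved in HepG2 as well. Of 34 tested mesenchymal effector genes, 11 were called higher with the decoy and 3 lower, beside 10.7% and 8.58% of all genes. The actin-binding genes TPM1 and TAGLN were among the higher ones, and LOX and COL6A1, given below, among the lower ones. TPM1 averaged 185.9 ± 5.20 CPM with the decoy and 145.5 ± 6.42 CPM in the control, and TAGLN 93.8 ± 4.01 and 70.1 ± 4.44 CPM (SD, n = 3 each). Their log2 fold changes were 0.35 ± 0.04 and 0.42 ± 0.05 (SE, adjusted p = 3.34e-10 and 2.49e-08, edgeR). Among 15 further transcription factors of the transition or its regulation, 1 was called, a smaller share than over all genes: ID2 (0.14 ± 0.05), which encodes an inhibitor of basic helix-loop-helix factors rather than a driver of the transition. Its call was lost on the deposited log2 matrix (limma, adjusted p = 0.536) and when any HepG2 library but miR-17 TuD replicate 3 was left out (adjusted p 0.0564 to 0.204). With replicate numbers as blocks the ID2 call was lost as well (adjusted p = 0.104, edgeR). Of 9 splicing regulators only MBNL1 was called, at -0.22 ± 0.05 (adjusted p = 0.000721, edgeR). The list medians were 0.16 for epithelial effectors, 0.12 for mesenchymal effectors, 0.20 for epithelial factors, 0.04 for the cadherin-catenin genes, 0.05 for the further transition factors and -0.06 for splicing, beside 0 for all genes. Of 10 hepatocyte markers 2 were called higher and 6 lower: their summed level was 48205 to 50653 CPM with the decoy and 55314 to 57507 CPM in the control, and its part in these counts was not tested.

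In SK-Hep1 the same lists held 2 calls with the decoy, both among the 34 mesenchymal effectors and both higher, beside 0.667% of all genes called higher. One of them, LOX, the collagen cross-linking enzyme, averaged 305.8 ± 8.97 CPM with the decoy and 263.5 ± 4.60 CPM in the control (log2 fold change 0.21 ± 0.05, adjusted p = 0.00872, edgeR). The LOX call was lost on the deposited log2 matrix, with replicate numbers as blocks, and without miR-17 TuD replicate 1 or either NC TuD library (adjusted p 0.0800 to 0.349). In the test of the difference between the lines, 6 of the 34 mesenchymal effectors were called as more positive in HepG2 and 2 as less positive, beside 2.51% and 1.24% of all genes. The collagen gene COL1A1 (0.69 ± 0.14) and TPM1 (0.29 ± 0.06) were among the 6 (SE, adjusted p = 0.000963 and 0.000491, edgeR). LOX was 1 of the 2, at -0.69 ± 0.08 (SE, adjusted p = 1.79e-08, edgeR), and COL6A1, named after its value was seen, was the other, at -0.51 ± 0.13 (adjusted p = 0.0168, edgeR). In HepG2 both were called lower with the decoy, LOX at -0.48 ± 0.07 and COL6A1 at -0.38 ± 0.09 (SE, adjusted p = 1.01e-07 and 0.00198, edgeR). The COL6A1 call for the difference was lost with DESeq2, on the deposited log2 matrix and with replicate numbers as blocks. It was also lost without HepG2 NC TuD replicate 3, SK-Hep1 miR-17 TuD replicate 1 or either SK-Hep1 NC TuD library (adjusted p over all of these 0.0540 to 0.0857). Of the 9 cadherin-catenin genes, JUP (0.61 ± 0.12) and VCL (0.33 ± 0.06) were called as more positive in HepG2, and of the 30 epithelial effectors CD24 (0.99 ± 0.14), KRT8 (0.25 ± 0.05) and its filament partner KRT18 (0.23 ± 0.05), with adjusted p between 1.65e-06 and 0.00287 (edgeR). The KRT8 and KRT18 calls were lost on the deposited log2 matrix (limma, adjusted p = 0.0558 and 0.0717).

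**Figure D4:**
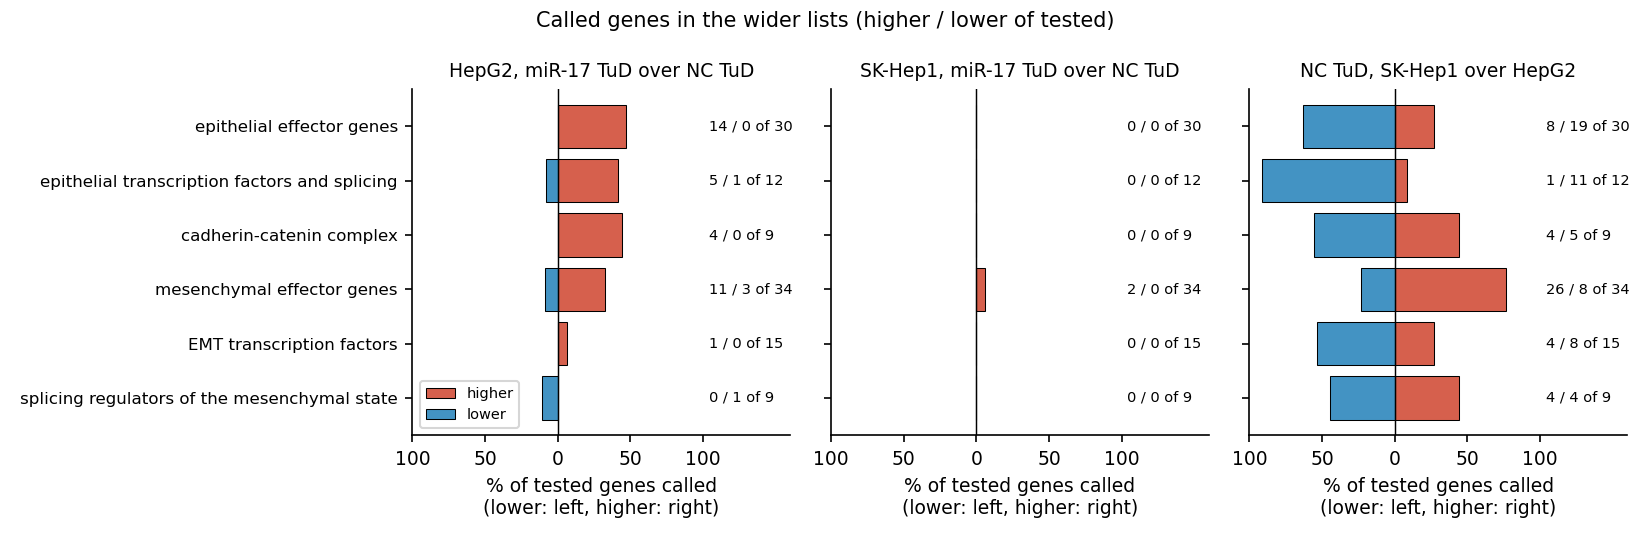
Share of the tested genes of each wider list that edgeR called higher (right, red) or lower (left, blue), for the decoy in HepG2, the decoy in SK-Hep1, and SK-Hep1 over HepG2 in the NC TuD arm; the text at each bar gives higher, lower and tested genes. Higher calls outnumber lower ones in 5 lists in HepG2, SK-Hep1 has calls in 1 list, and between the lines epithelial lists lean lower and mesenchymal effectors higher.

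The wider lists also describe the lines, against the background of 43.9% of all genes called higher and 42.8% lower in the SK-Hep1 control. Some list genes passed the filter on low counts only through the line where they were high. Among those named below, HNF4A, CEBPA, MAL2, CLDN4 and RBM47 did so through HepG2, and CD44, MSN and CDH13 through SK-Hep1. Of 17 epithelial factors counted, 12 passed it. The counts and medians below are therefore partly set by the filter. Of 34 mesenchymal effectors 26 were higher and 8 lower, with a median log2 fold change of 4.17. The summed level of 8 fibroblast markers was 101.7 to 114.4 CPM in SK-Hep1 and 28.4 to 33.3 CPM in HepG2, and its part in these calls was not tested. The 2 lists overlap, since COL1A1, COL1A2, COL3A1, PDGFRB and THY1 are in both. Of the 5 fibroblast markers tested, 4 were called higher in SK-Hep1 and 1 lower. The lower one was PDGFRB, at 5.72 CPM in SK-Hep1 and 21.7 CPM in HepG2 NC TuD libraries. COL1A2, DCN and PDGFRA, not tested, had 5, 12 and 0 counts in SK-Hep1 NC TuD libraries. CD44, the hyaluronan receptor, averaged 1515 ± 25.9 CPM in SK-Hep1 and 0.380 ± 0.153 CPM in HepG2. The matrix gene SPARC stood at 5.72 ± 0.04 on the log2 scale, and MSN, which encodes the actin linker moesin, at 11.10 ± 0.09 (SE). Of 12 epithelial factors 11 were lower, with a median of -5.51. HNF4A averaged 0.202 ± 0.0864 CPM in SK-Hep1 and 265.2 ± 9.23 CPM in HepG2. The liver transcription factors CEBPA and FOXA1 stood at -8.54 ± 0.14 and -6.33 ± 0.12. Of 30 epithelial effectors 19 were lower and 8 higher (median -1.84), and among the lower ones were the desmosomal gene DSP at -3.76 ± 0.05 (SE), the membrane traffic gene MAL2 at -10.14 ± 0.17 and the claudin CLDN4 at -8.06 ± 0.16. In the cadherin-catenin list, 4 were higher and 5 lower (median -0.48), and CDH13, a cadherin anchored by a lipid tail, had 116.1 ± 0.890 CPM in SK-Hep1 and 0.0486 ± 0.0842 CPM in HepG2. VCL stood at 2.09 ± 0.04 and MLLT4 at -1.86 ± 0.05. Of the 15 further transition factors 4 were higher and 8 lower (median -0.14), and ID1, ID2 and ID3 were among the lower ones at -3.93 ± 0.07, -4.63 ± 0.09 and -2.54 ± 0.07. Of 9 splicing regulators 4 were higher and 4 lower (median -0.05), with MBNL1 at 2.26 ± 0.05, RBFOX2 at 1.67 ± 0.05 and RBM47 at -7.23 ± 0.48.

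The genes whose log2 CPM ran closest to CDH1 over all 10 libraries were SCNN1A, FAM102A, LOXL4, SULT1E1 and XPNPEP2, with Pearson's r between 0.9987 and 0.9996. Closest to VIM were CDC42EP3, GLRB, SEMA3C, MYBL1 and ZNF75A (0.9992 to 0.9995). Within the 6 HepG2 libraries alone, NEDD9, EPAS1, TNFRSF21 and SQRDL were among the 5 that ran closest to CDH1 (0.9969 to 0.9983). All of these values describe shared steps between lines or arms, which most called genes have, and they carry no test.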

How the data were processed

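RNA of 2 human liver tumour lines, each with a miR-17 TuD or NC TuD, was measured in 10 libraries (150 ng of total RNA each, read as 50 bp pairs). Per the labels, cells were grown with 10% serum. The authors deposited raw gene counts, 1 file per library, and a joint log2 matrix. Per the submitters' processing notes, STAR, SAMtools, HTSeq 0.5.4p5, limma and the build hg19 were used; the series text names other aligners, RSEM and a mouse genome, while the symbols are human and the files end in 5 summary rows that name no gene. These rows (outside genes 11.6% to 14.1%, ambiguous 0.584% to 0.619%, not unique 4.47% to 5.04%, not aligned 2.43% to 2.87%, and 1 row at 0) were left out. In the deposited log2 matrix, 13616 of 13658 genes were matched, and their values were log2 of the count plus 0.5 over 1 library size per library (largest departure 5.2e-14).

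The count test was that of edgeR 4.0.16 (R 4.3.3): filterByExpr by group (13349 genes), TMM factors, and 1 robust quasi-likelihood fit of 4 group means over all 10 libraries. Calls need a two-sided p below 0.05 after Benjamini-Hochberg adjustment over all genes. The SE is the log2 fold change divided by the square root of F. The procedure was tested on simulated data in which both lines had the same mean for each gene and only well-counted genes were changed. That test does not cover genes nearly without counts in a line or arm. Median log2 fold changes of all genes were 0 to 0.023 in size. Ratios of few counts have exact Poisson intervals at 95%; these and the floor of 3 counts cover counting error only. Exon lengths and positions are from GENCODE 29 on GRCh38, while counts were made on hg19. Antisense genes are annotated over exons of CDH1, CDH2, VIM and ZEB2; without strand their reads cannot be told apart.

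The 10 genes, the wider lists and the tests were chosen with earlier results of these data known. Of 163 list symbols 161 were found. From each wider list, up to 3 called genes per comparison with the smallest adjusted p are named, plus the 5 most similar genes to CDH1 and VIM; other names are said to be chosen after their values were seen, and of the genes that the rule names, 1 is not reported here. Of the marker lists for other cell types, summed levels and the genes beside a result are given. SNAI1 and ESRP1 are from those lists and were added as relatives of members, with ALB and AFP. Alternatives were RLE and upper-quartile factors, DESeq2 1.42.0, limma-voom (3.58.1), other filters, no robust estimation, a replicate block, 1 line alone, each library left out and, chosen after seeing the data, limma-trend on the deposited log2 matrix. Same-numbered libraries did not deviate together (correlations -0.245 to 0.056 over 8798 genes), so the numbers were not taken as pairs. Of differently numbered HepG2 libraries, miR-17 TuD replicate 3 and NC TuD replicate 2 correlated at 0.289. For miR-17 TuD replicate 2 and NC TuD replicate 3 it was 0.241, and the rest lay between -0.0706 and 0.0213. The cause was not tested. With 2 libraries per arm, the SK-Hep1 values can differ only in sign.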

Additional observations from a re-analysis of the deposited data

Results flagged for a closer look

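For CDH2 the response to the miR-17 decoy differed between the lines, with a difference of 0.36 on the log2 scale between HepG2 and SK-Hep1. N-cadherin was higher with the decoy in HepG2 by 0.29 and stood at -0.08 in SK-Hep1, and the call held in each alternative run (0.34 to 0.38, adjusted p 0.000265 to 0.0172). The same test gave a difference of 3.39 for SNAI2. That value rests on 15 counts in HepG2 miR-17 TuD libraries and 1 count in NC TuD libraries, and the call was lost in 4 of 19 alternatives (adjusted p over all of them 0.0122 to 0.0913).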

How the results depend on the processing

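CDH1, CDH2 and SNAI2 stayed called higher in HepG2 in all alternatives that gave a value. Of 697 values of the 10 genes, 674 kept direction and call, 7 gained a call, 6 lost one and 10 changed sign. The sign changes all came from leaving out 1 library, and none was past the threshold. Leaving out each library in turn gave -0.76 to 0.24 for VIM and -0.021 to 0.041 for FN1 in HepG2, and -0.88 to 0.12 for the VIM difference. In SK-Hep1 it gave -0.067 to 0.089 for ZEB1, -0.0075 to 0.042 for ZEB2, -0.091 to 0.13 for SNAI2 and -1.91 to 0.037 for EPCAM. Called genes numbered 2571 in HepG2 (1642 on the deposited log2 matrix, 1793 to 2694 leaving out 1 library), and 11578 between lines (11201 to 11676). In SK-Hep1 there were 116 (274 from its libraries alone, 49 to 171 leaving out 1 library), and for the difference 500 (312 on the matrix, 266 to 613 leaving out 1). With the replicate block, which the data did not support as pairs, the counts were 1872, 58, 227 and 10834. The cause of these shifts was not tested. Genes under about 3 counts per library cannot be ranked at this depth.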

Other observations

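A pair of epithelial effector genes was singled out after their values were seen. ST14, which encodes the membrane serine protease matriptase, averaged 2.76 ± 0.0405 CPM in HepG2 miR-17 TuD libraries and 1.33 ± 0.300 CPM in NC TuD libraries (SD, n = 3 each). Its log2 fold change was 1.05 ± 0.25 (SE, adjusted p = 0.00146, edgeR). SPINT1, which encodes an inhibitor of matriptase, averaged 7.39 ± 0.823 and 4.45 ± 0.394 CPM (0.74 ± 0.16, adjusted p = 0.000286, edgeR; 0.414 by limma on the deposited log2 matrix). ST14 had 0 counts in all SK-Hep1 libraries.

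Some epithelial effector genes, 8 of 30, were called higher in SK-Hep1 than in HepG2, among them keratins. That is a smaller share than the 43.9% of all genes called higher. KRT8 averaged 2688 ± 55.5 CPM in SK-Hep1 NC TuD libraries and 1492 ± 39.8 CPM in HepG2 NC TuD libraries. KRT18, its partner in the filament, averaged 2107 ± 38.4 and 830.8 ± 5.36 CPM. The claudin gene CLDN7, named after its value was seen, was higher as well, with 712 counts over the 2 SK-Hep1 NC TuD libraries and 1 count over the 3 HepG2 NC TuD libraries. CLDN7 passed the filter on low counts only through SK-Hep1.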
